A study of Mus musculus with 4 samples.

Results

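Collagens are triple-helical proteins of the extracellular matrix, each helix built from chains that separate genes encode. In skin, keratinocytes make chains of the basement membrane that they rest on, and dermal fibroblasts make most of the fibrils below it. Transcripts of the collagen chain genes were compared between primary mouse keratinocytes deficient in the glucose transporter Glut1 (KO) and wild-type keratinocytes (WT). A gene was taken when its symbol had the form of a collagen chain (Col, a number, a and a number) and its array row was annotated with that single symbol. For a gene with several rows, the row with the highest mean of the 4 arrays stood for it. This gave 42 of the 30142 genes measured. Col7a1, the anchoring fibril chain, and Col6a4 were not among them, because their rows also name another gene.

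Chains were sorted by structure. Collagen IV chains form the sheet of the basement membrane. Collagen XVII is a transmembrane protein of the hemidesmosome, which ties the basal cell to that sheet, and collagen XVIII is a proteoglycan of the sheet. Fibrillar collagens (I, II, III, V, XI, XXIV and XXVII) form the fibrils of interstitial matrix, FACIT collagens decorate those fibrils, and collagen VI forms beaded filaments. Collagens VIII and X are short chains that form networks.

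The KO cells carried a keratinocyte-specific Glut1 deficiency, and the WT cells did not. Which promoter drove the deletion was not stated in the labels. The mice were C57BL/6J, aged 1 week, with 4 animals for each genotype, and the cells grew with 0.05 mM CaCl2, EGF, insulin, hydrocortisone and pituitary extract. After 3 days the cells were reseeded at 2000000 on collagen-coated plates and collected the next day. Each of the 4 arrays, 2 per genotype, held RNA of 2 plates of a genotype combined at random, so p-values measure the spread between such pools, which may be partly technical.

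Values are log2 signals of a whole array row, so levels of different genes are not set against each other. Background was the 95th percentile of 23 background control rows on each array, 4.87 and 4.63 in KO and 4.36 and 4.70 in WT. Differences are KO minus WT in log2 units, each with its SE (limma's moderated standard error), from a fit over 30604 rows. A Benjamini-Hochberg adjusted p under 0.05 over all these rows was a call. Slc2a1, the gene of Glut1, had 12.09 and 12.01 in KO and 13.26 and 13.40 in WT, and fell by 1.28 (limma adjusted p = 0.00754, and 0.0508 without KO replicate 1). That is 2.42-fold lower in KO, so a signal well above background remained on the KO arrays. Of 8 keratinocyte markers, 7 lay above background on all 4 arrays, with Krt5 between 17.98 and 18.69, and Krt15 did so on some.

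Of the 42 chains, 25 lay at or below background in both groups, 9 lay above it on all 4 arrays, and 8 lay above it on 1, 2 or 3 arrays. In 2 chains the signal rose in KO cells (Col12a1 and Col6a1) and in 2 it fell (Col8a1 and Col17a1), while 38 were not called. These 4 called chains are 9.52% of the members, against 7.22% of all rows called (4.11% higher and 3.11% lower). The median difference was 0.01 over the chains, most of which lay at or below background in both groups, and -0.01 over all rows. The groups did not overlap in 24 chains, 57.1% of them, against 49.7% of all rows. KO arrays lay above WT arrays in 18 chains (42.9%, against 23.8% of all rows) and below them in 6 (14.3%, against 25.8%). Of these, 7 of the 18 and 2 of the 6 were at or below background in both groups, where the order of the arrays is no measure of a change.

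**Figure D1:**
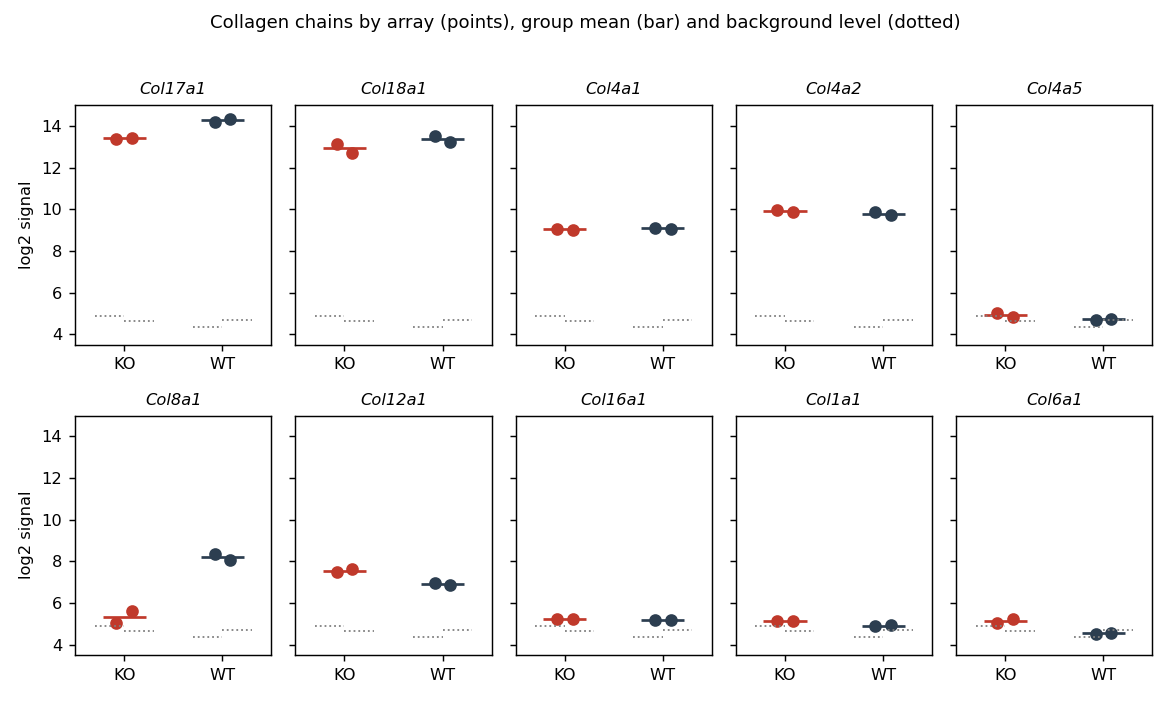
log2 signal (y axis) of 10 collagen chains on each KO (red) and WT (dark) array, with the group mean as a bar and each array's background level as a dotted line (replicate 1 left, replicate 2 right). Col17a1, Col18a1 (not called) and Col8a1 sit lower on KO arrays, Col12a1 and Col6a1 sit higher, and Col4a1 overlaps between groups. KO arrays also sit above WT arrays for Col4a2, Col4a5, Col16a1 and Col1a1, which were not called.

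Among the basement membrane chains, only Col17a1 was called. Col17a1, the hemidesmosomal chain, had 13.38 and 13.44 on the KO arrays and 14.18 and 14.36 on the WT arrays. Both KO values lay below both WT values. The gene fell by 0.86 (SE 0.11, 95% interval -1.14 to -0.59, n = 2 per group, limma adjusted p = 0.0181), which is 1.82-fold lower in KO. The call was lost whichever array was left out, with adjusted p of 0.0883 and 0.0567 without KO replicate 1 and 2, and 0.0611 and 0.0823 without WT replicate 1 and 2.

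Col18a1, whose protein yields the fragment endostatin, had 13.13 and 12.72 in KO and 13.52 and 13.25 in WT. Its groups did not overlap, but the lower WT array lay only just above the higher KO array. The difference was -0.45 (SE 0.18, 95% interval -0.90 to -0.00, limma adjusted p = 0.224) and was not called.

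Col4a1 and Col4a2 encode the chains that wind into the common collagen IV helix of most basement membranes. Col4a1 had 9.07 and 9.02 in KO and 9.12 and 9.04 in WT. The ranges overlapped, and the difference was -0.04 (SE 0.10, 95% interval -0.29 to 0.20, limma adjusted p = 0.881). Col4a2 had 9.98 and 9.88 in KO and 9.85 and 9.72 in WT. KO arrays lay just above WT arrays, with a difference of 0.15 (SE 0.10, 95% interval -0.12 to 0.41, limma adjusted p = 0.528). Neither was called, and both intervals exclude a change as large as that of Col17a1.

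The remaining collagen IV chains lay near background. Col4a3 and Col4a4, partners in the helix of kidney glomerular basement membrane, had groups that did not overlap. Col4a3 had 4.91 and 4.82 in KO and 4.34 and 4.45 in WT, where both arrays were at or below background. KO replicate 1 lay just above its background of 4.87, and the gene was not called (limma adjusted p = 0.0601). Col4a4 had 5.01 and 4.82 in KO and 4.57 and 4.56 in WT (difference 0.35, SE 0.11, limma adjusted p = 0.141). Col4a5 had 5.00 and 4.84 in KO and 4.68 and 4.74 in WT (difference 0.21, SE 0.10, limma adjusted p = 0.349). Col4a6 was at or below background in both groups. Of the 8 basement membrane chains 1 fell, none rose and 7 were not called, with a median difference of 0.07. The share of all rows called was 3.11% lower and 4.11% higher.

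**Figure D2:**
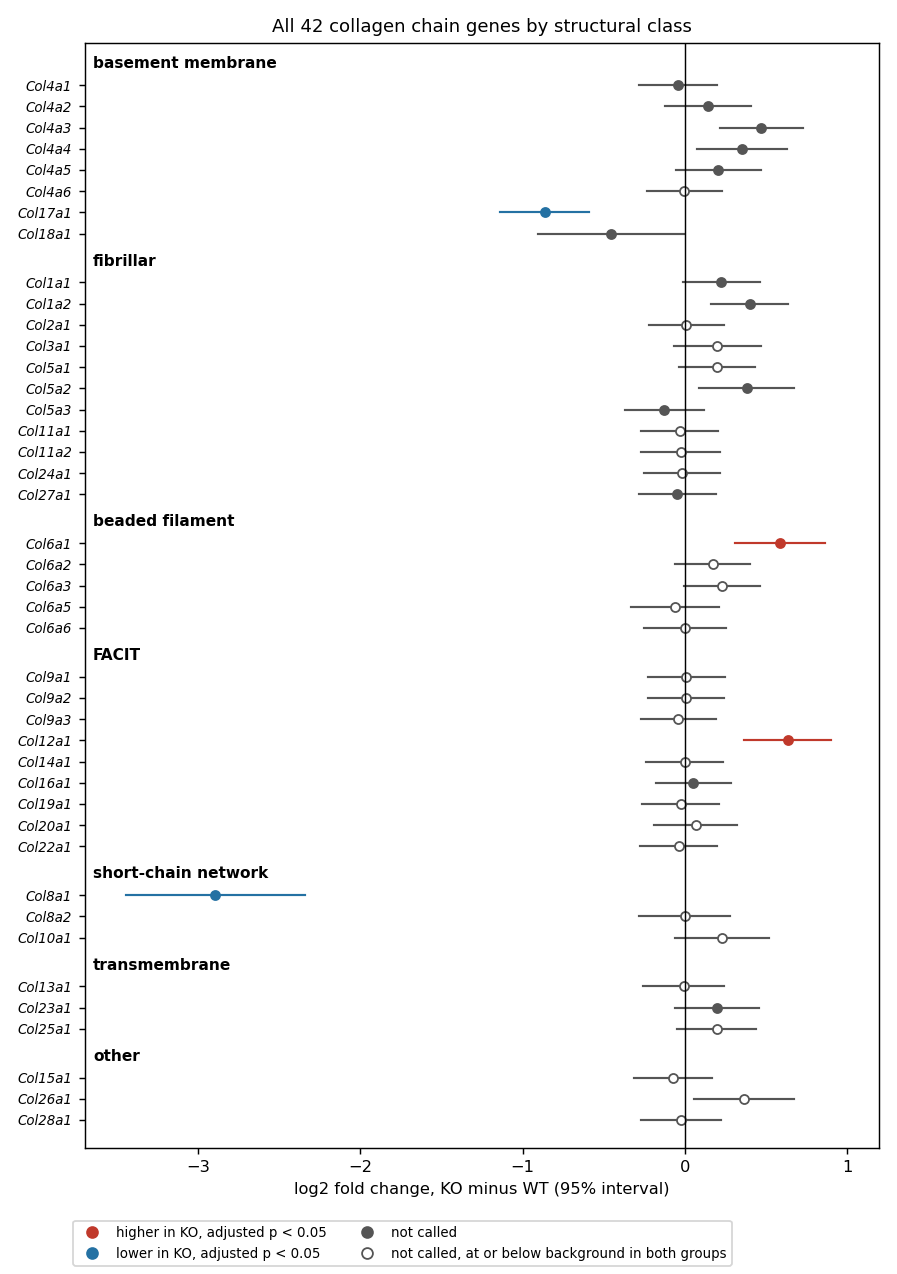
Difference KO minus WT (x axis, log2, with 95% interval) of the 42 chains by structural class. Open circles are chains at or below background in both groups, where the fitted difference is no measure of a change; Col8a1 lies far to the left at -2.90, and Col17a1, Col12a1 and Col6a1 are the other called chains.

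Col8a1 encodes a short-chain collagen known from the membrane under the corneal endothelium and from vessel walls. It had 5.02 and 5.60 on the KO arrays and 8.34 and 8.07 on the WT arrays. KO replicate 1 lay just above its background of 4.87, while both WT arrays stood far above theirs. The gene fell by 2.90 (SE 0.22, 95% interval -3.45 to -2.34, limma adjusted p = 0.00639), or 7.44-fold, and ranked 21 among the falls of 30604 rows. The call held without each array in turn (adjusted p from 0.0148 to 0.0301). Its partner chain Col8a2, and Col10a1 of growth plate cartilage, were at or below background in both groups.

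Endothelial and smooth muscle cells are known sources of collagen VIII. Of 6 endothelial markers, Cdh5, Tek, Vwf and Cldn5 were at or below background in both groups. Pecam1 was so in KO cells and exceeded background on 1 of the WT arrays, while Kdr, a VEGF receptor, rose by 3.60 (limma adjusted p = 0.00508). The list's summed linear signal was 1206 and 804 in KO and 145 and 161 in WT, and without Kdr it was 76.3 and 72.1 in KO and 75.9 and 80.3 in WT, so that gene carried the difference. Of 6 smooth muscle markers none was called, against 7.22% of all rows (median difference -0.19). KO arrays lay below WT arrays in 5 of them, against 25.8% of all rows. The 5 include Rgs5 and Des, which were at or below background in both groups, where the order is no measure of a change. The summed signal of the list was 2505 and 3225 in KO and 3436 and 3364 in WT. Acta2, smooth muscle actin, had 11.18 and 11.48 in KO and 11.55 and 11.59 in WT. It had the highest signal of the list on every array and so weighs most in that sum. Cnn1 differed by -0.28, Tagln by -0.55 (SE 0.53) with overlapping groups, and Myh11 exceeded background on 1 WT array alone. The part of other cell types in the Col8a1 difference was not tested. In such cultures fewer cells of a type and less RNA per cell cannot be told apart.

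Among the fibril-associated chains, Col12a1 had 7.46 and 7.61 in KO and 6.95 and 6.86 in WT. Its product bridges fibrils in dense connective tissue and near basement membranes. The groups stood apart, and the gene rose by 0.63 (SE 0.11, 95% interval 0.37 to 0.90, limma adjusted p = 0.0327), or 1.55-fold. The call was lost without KO replicate 1 or 2 (adjusted p = 0.0892 and 0.0889) and without WT replicate 1 or 2 (0.125 and 0.155). Col16a1, another FACIT chain, had 5.22 and 5.22 in KO and 5.16 and 5.18 in WT, a difference of 0.05 (95% interval -0.18 to 0.28) that was not called. The other 7 FACIT chains (Col9a1, Col9a2, Col9a3, Col14a1, Col19a1, Col20a1 and Col22a1) were at or below background in both groups.

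Col6a1 encodes a chain of the beaded filaments of collagen VI. It had 5.03 and 5.22 in KO and 4.52 and 4.56 in WT. Both KO arrays and 1 of the 2 WT arrays exceeded background, so the WT level is close to what the arrays can measure. The gene rose by 0.59 (SE 0.11, 95% interval 0.31 to 0.87, limma adjusted p = 0.0433). The call was lost without KO replicate 1 or 2 (adjusted p = 0.0883 and 0.101) and without WT replicate 1 or 2 (0.191 and 0.158). The other chains of the trimer, Col6a2 and Col6a3, were at or below background in both groups. Col6a5 and Col6a6 were at or below background too.

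The transmembrane chains other than Col17a1, and the chains outside these classes, gave no call. Col23a1 had 4.69 and 4.59 in KO, at or below background, and 4.38 and 4.50 in WT, where 1 array exceeded it. Col13a1, Col25a1, Col15a1, Col26a1 and Col28a1 were at or below background in both groups.

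Upstream sequences of Col8a1, Col17a1 and Col6a1 are shown because these are the called chains with a RefSeq promoter at hand. Each is the 250 bases before the annotated start, on the gene's strand, from RefSeq (GRCm38.p6), at chr16:57754738-57754987, chr19:47692043-47692292 and chr10:76726045-76726294, all on the minus strand. Capitals mark matches on either strand to AP-1 (TGANTCA), TEAD (GGAATG), a GC box (GGGCGG) or the C/EBP-ATF composite (TGATGNAA).
Col8a1: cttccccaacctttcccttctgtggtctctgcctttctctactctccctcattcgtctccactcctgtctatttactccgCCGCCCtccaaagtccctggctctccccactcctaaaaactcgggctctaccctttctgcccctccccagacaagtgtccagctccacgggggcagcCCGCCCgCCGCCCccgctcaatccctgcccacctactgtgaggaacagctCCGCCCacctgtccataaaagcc
Col17a1: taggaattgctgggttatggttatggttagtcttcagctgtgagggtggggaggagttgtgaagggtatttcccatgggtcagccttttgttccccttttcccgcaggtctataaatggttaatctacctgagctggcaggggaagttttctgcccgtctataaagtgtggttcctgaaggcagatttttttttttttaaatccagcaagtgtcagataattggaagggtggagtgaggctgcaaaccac
Col6a1: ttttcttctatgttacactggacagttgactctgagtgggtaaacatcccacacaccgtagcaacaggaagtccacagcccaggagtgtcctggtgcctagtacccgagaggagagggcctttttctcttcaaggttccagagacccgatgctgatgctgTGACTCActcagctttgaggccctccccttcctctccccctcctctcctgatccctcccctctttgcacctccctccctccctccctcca

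The Col8a1 stretch held 4 GC boxes, all read on the opposite strand, the Col6a1 stretch held 1 AP-1 word, and the Col17a1 stretch held none of these words. Over windows of 300 bases that run on past the start, 33 of the 42 genes had 36 promoters. A GC box was in 21 of the 36, against 35.7% of 32851 mouse promoters. AP-1 words were in 1 (7.81% of all), TEAD words in 5 (14.7%) and the C/EBP-ATF word in none (3.97%). No motif overlapped another in the printed stretches. A match is a run of letters and not a shown binding site.

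The fibrillar chains stayed near background and none of the 11 was called, against 7.22% of all rows. Col1a1, a chain of the main fibrils of dermis, was the only one above background on all 4 arrays, with 5.11 and 5.14 in KO and 4.87 and 4.93 in WT (difference 0.22, SE 0.09, 95% interval -0.01 to 0.46, limma adjusted p = 0.256). Its partner Col1a2 had 4.81 and 4.88 in KO and 4.44 and 4.45 in WT (difference 0.40, SE 0.09, limma adjusted p = 0.0730). Col5a2, of the collagen that regulates fibril width, had 4.85 and 5.09 in KO and 4.57 and 4.60 in WT (difference 0.38, SE 0.12, limma adjusted p = 0.135). KO arrays lay above WT arrays for all 3 of these. Col3a1, Col5a1, Col2a1, Col11a1, Col11a2 and Col24a1 were at or below background in both groups, and Col5a3 and Col27a1 in KO. Col5a3 had 4.37 and 4.29 in KO and 4.49 and 4.42 in WT, and Col27a1 had 4.57 and 4.49 in KO and 4.56 and 4.59 in WT, so neither stood clear of background. KO arrays lay above WT arrays in 5 fibrillar chains (23.8% of all rows) and below them in 1 (25.8% of all rows). Col3a1 and Col5a1 are among the 5, and at background the order of the arrays is no measure of a change. The median difference of the class was 0.01. That is the value of Col2a1, at or below background in both groups, so it is no measure of the chains above background.

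Fibroblast markers were read on the same arrays. Of 13 measured, 2 rose, 1 fell and 10 were not called, with a median difference of 0.64. Over all rows 4.11% were called higher and 3.11% lower. KO arrays lay above WT arrays in 10 of the 13 markers, against 23.8% of all rows. Vim, an intermediate filament gene of mesenchymal cells, had 10.25 and 11.92 in KO and 8.38 and 8.04 in WT (difference 2.88, limma adjusted p = 0.0428). Dcn, the fibril-binding proteoglycan decorin, had 5.28 and 5.97 in KO and 4.08 and 3.82 in WT, at background, so it was at least 2.14-fold higher (limma adjusted p = 0.0250). Fbln1 fell by 0.81 (limma adjusted p = 0.0293). Both rises were lost without WT replicate 1 (adjusted p = 0.107 for Vim and 0.0697 for Dcn) or WT replicate 2 (0.125 and 0.0834), and the fall of Fbln1 without KO replicate 1 (0.0890) or WT replicate 1 or 2 (0.118 and 0.116).

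Among the other fibroblast markers were Sparc, with 11.02 and 11.86 in KO and 10.26 and 9.82 in WT (difference 1.40, limma adjusted p = 0.0641), and Fbln2, whose groups overlapped (difference -0.72). Neither was called. Lum and Mfap5 were at or below background in both groups, and WT arrays were so for Dcn, Dpt, Twist2 and S100a4. The list's summed linear signal was 3984 and 8732 in KO and 2888 and 2007 in WT. On the KO arrays Vim and Sparc had the highest signals of the list and so weigh most in this sum. KO replicate 2 was higher than KO replicate 1 for 10 of the 13 markers. The same order held for 15 of the 42 collagen chains: 7 of the 11 fibrillar, 1 of the 8 basement membrane and 7 of the 23 other chains. Of these fibrillar chains, Col3a1, Col5a1, Col11a1 and Col24a1 were at or below background in both groups, where the order is no measure. WT replicate 2 was higher than WT replicate 1 for 8 of the 13 markers and 27 of the 42 chains. These were 7 fibrillar, 4 basement membrane and 16 other chains. The share of all rows in either order was not counted, so these counts have no baseline and show no shared pattern. The part of fibroblast RNA in the values of the interstitial chains was not tested.

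**Figure D3:**
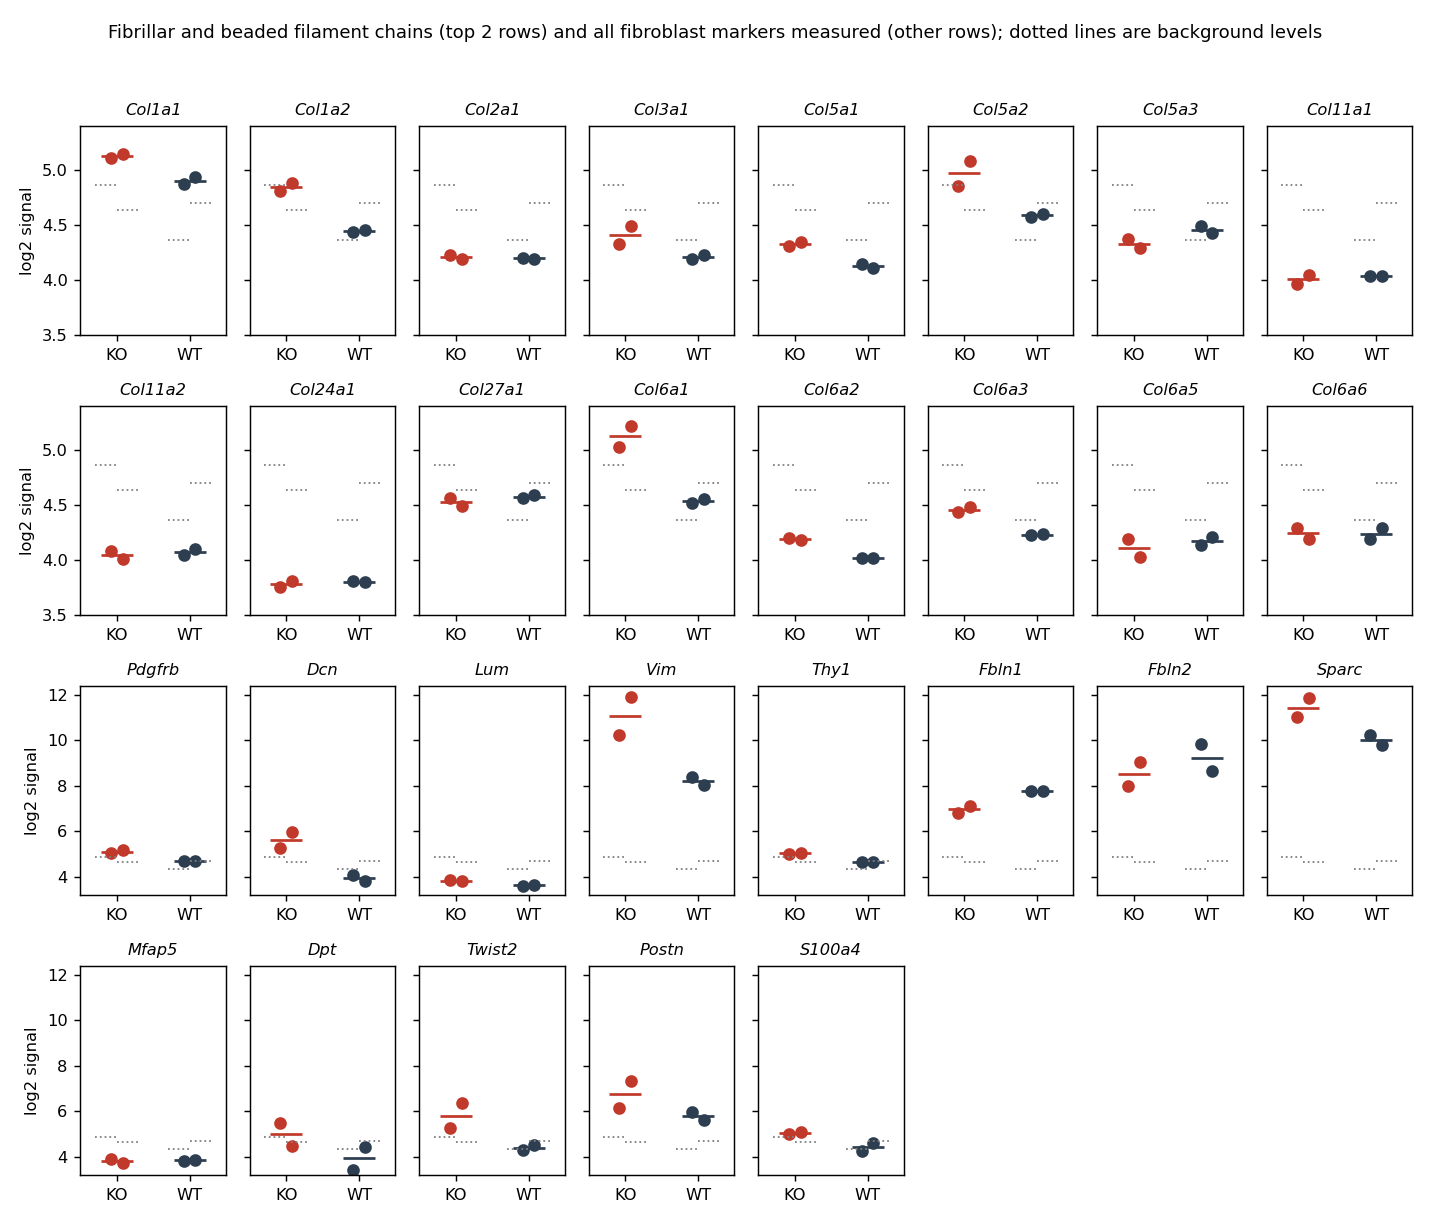
log2 signal (y axis) of the 16 fibrillar and beaded filament chains (top rows) and the 13 fibroblast markers (other rows, on a wider scale) on KO (red) and WT (dark) arrays, with group means as bars and each array's background as a dotted line. KO arrays sit above WT arrays for 8 of the 16 chains and for 10 of the 13 markers, against 23.8% of all rows. Of the 16 chains 10 are at or below background in both groups, and Col3a1, Col5a1, Col6a2 and Col6a3 of the 8 are among them.

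Other non-keratinocyte markers also differed. The counts of calls below stand beside 4.11% of all rows called higher and 3.11% called lower. Of 7 melanocyte markers 1 rose, Pmel by 1.04 (limma adjusted p = 0.0341, and 0.0962, 0.0903 and 0.122 without KO replicate 1, WT replicate 1 and WT replicate 2), and the summed linear signal was 5324 and 2255 in KO and 1501 and 1061 in WT. Tyrp1, with the highest signal of the list on every array, weighs most in that sum. Tyrp1 and Dct, of pigment synthesis, had differences of 1.49 and 1.84 (not called). KO replicate 1 lay above KO replicate 2 for all 7 markers, but the share of all rows in that order was not counted. Of 7 immune markers, Ptprc, Cd207, Lyz2, Cd3e, Itgam and Fcer1g were at or below background in both groups, and Cd68, also a lysosomal gene, rose by 1.95 (limma adjusted p = 0.0267, and 0.0913 and 0.0756 without WT replicate 1 and 2). The summed signal of the immune list was 702 and 1250 in KO and 289 and 306 in WT, and without Cd68 it was 71.7 and 72.6 in KO and 72.4 and 75.9 in WT. Of 8 keratinocyte markers 1 fell, Epcam by 0.84 (limma adjusted p = 0.0184, between 0.0609 and 0.0933 with any 1 array left out), and the summed signal was 868383 and 752558 in KO and 953560 and 1006266 in WT. Krt5, Krt14 and Perp had differences of -0.51, -0.43 and 0.52 and were not called.

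Several chain genes are neighbours with no protein-coding gene between them in RefSeq (GRCm38.p6), and their differences are given in pairs. Col4a1 and Col4a2 differed by -0.04 and 0.15, Col4a4 and Col4a3 by 0.35 and 0.47, Col3a1 and Col5a2 by 0.20 and 0.38, and Col6a2 and Col6a1 by 0.17 and 0.59. Of these genes only Col6a1 was called. Col3a1 and Col6a2 lay at or below background in both groups and Col4a3 in WT, so their differences are no measure of a change. Col18a1, which lies 2 protein-coding genes from Col6a1, differed the other way at -0.45. Col4a5 had 0.21 beside Col4a6 at background, and in the pairs of Col9a1 with Col19a1 and Col6a5 with Col6a6 all genes lay at or below background.

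Genes that modify, export, process and cross-link collagen changed in both directions. Of 30 measured, 5 rose, 5 fell and 20 were not called (median difference 0.01). Over all rows 4.11% were called higher and 3.11% lower. Among the hydroxylases P3h2, which modifies prolines of basement membrane collagen, had 11.24 and 11.03 in KO and 9.57 and 9.46 in WT and rose by 1.61 (SE 0.12, limma adjusted p = 0.00593). Plod2, which hydroxylates lysines of the telopeptides used in cross-links, had 10.92 and 11.14 in KO and 12.16 and 12.33 in WT and fell by 1.22 (SE 0.12, limma adjusted p = 0.0125). P4hb, the shared subunit of prolyl 4-hydroxylase and a disulfide isomerase, had 14.67 and 14.73 in KO and 15.22 and 15.33 in WT and fell by 0.58 (SE 0.10, limma adjusted p = 0.0344). Ppib, a proline isomerase, had 14.57 and 14.87 in KO and 14.78 and 14.81 in WT and was not called.

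Both proteinases of the list that remove the carboxyl propeptide of procollagen were lower. Tll1 had 8.25 and 8.75 in KO and 10.81 and 10.82 in WT and fell by 2.32 (SE 0.18, limma adjusted p = 0.00668). Bmp1 had 11.09 and 11.07 in KO and 12.29 and 12.12 in WT and fell by 1.13 (SE 0.10, limma adjusted p = 0.00958). Lysyl oxidase genes went the other way. Lox had 7.16 and 7.59 in KO and 5.50 and 5.45 in WT and rose by 1.90 (SE 0.16, limma adjusted p = 0.00783). Loxl4 rose by 0.82 (SE 0.10, limma adjusted p = 0.0169), while Loxl1 and Loxl3 were not called.

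In the endoplasmic reticulum, Tmem38b, a potassium channel, rose by 0.62 (limma adjusted p = 0.0262), and Creb3l1, a membrane-bound transcription factor that drives collagen genes in bone, rose by 0.66 (limma adjusted p = 0.0236). Serpinh1, the collagen chaperone, completes the falls and was named after its values were seen. It fell by 0.52 on its brighter row (limma adjusted p = 0.0441) and had a difference of -0.40 on its other row (limma adjusted p = 0.123). Calls of P3h2, Tll1 and Lox held without each array in turn. Those of P4hb, Serpinh1, Tmem38b, Creb3l1 and Loxl4 were lost in each of the 4 fits on 3 arrays (adjusted p from 0.0511 to 0.218). Plod2 was lost without KO replicate 1 (0.0610) or WT replicate 2 (0.0503), and Bmp1 without KO replicate 1 (0.0588) or WT replicate 1 (0.0516).

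**Figure D4:**
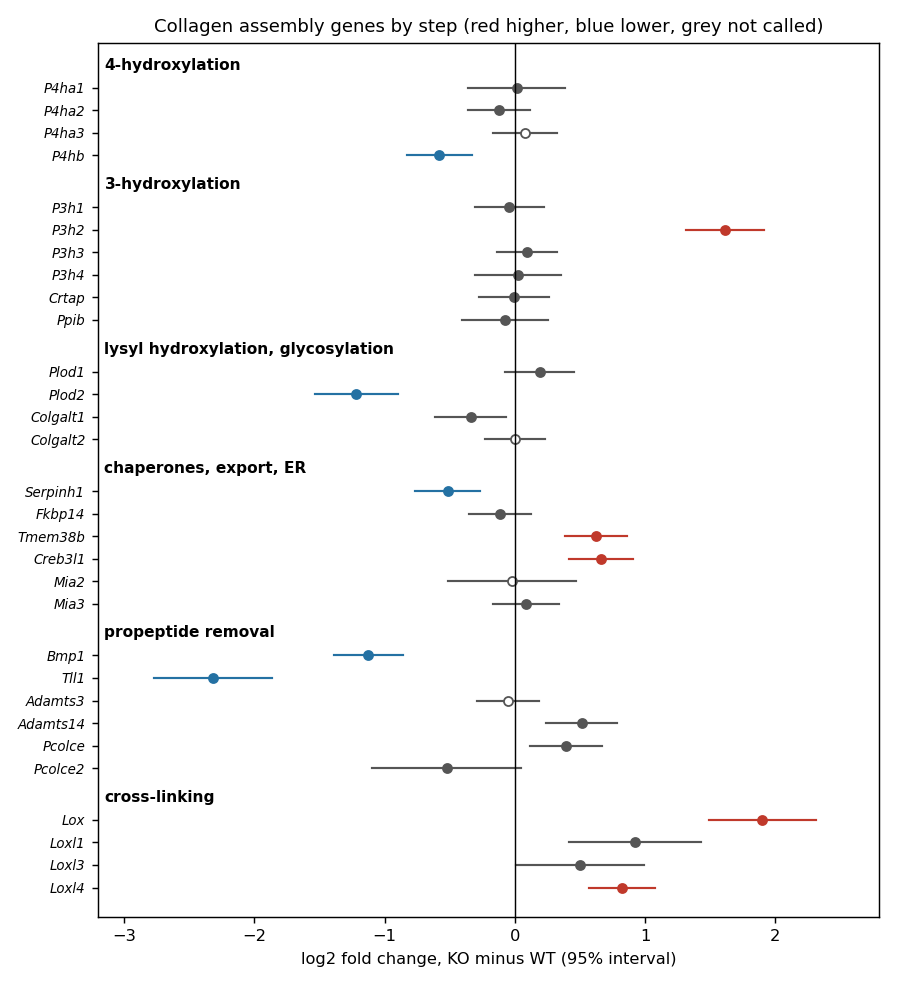
Difference KO minus WT (x axis, log2, with 95% interval) of the 30 measured collagen assembly genes, grouped by step. Open circles are genes at or below background in both groups; Tll1, Plod2 and Bmp1 are the largest falls shown and Lox and P3h2 the largest rises.

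Among collagen receptors, Ddr2, a receptor tyrosine kinase for fibrillar collagen, had 7.28 and 7.97 in KO and 5.18 and 5.19 in WT and rose by 2.45 (SE 0.23, limma adjusted p = 0.0107, from 0.0215 to 0.0401 with any 1 array left out). The other 7 of the 8 measured were not called, and the share called over all rows was 7.22%. The integrin chains Itga2 and Itgb1, which pair into a collagen receptor of keratinocytes, differed by -0.06 (95% interval -0.30 to 0.18) and -0.35 (95% interval -0.60 to -0.10, limma adjusted p = 0.108).

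Partners of the chains at the junction of epidermis and dermis were called lower in 6 of 18 measured. None was called higher and 12 were not called (median difference -0.38). Over all rows 3.11% were called lower and 4.11% higher. With only rows at or above the median mean tested, 7 of 14 partners were called lower and 2 higher, against 1345 and 1698 of 15302 rows. KO arrays lay below WT arrays in 10 of the 18 (25.8% of all rows) and above them in 4 (23.8%). Frem1, among the 10, and Frem2, among the 4, were at or below background in both groups. Hspg2, the basement membrane proteoglycan perlecan, had 10.08 and 10.17 in KO and 11.61 and 11.27 in WT and fell by 1.31 (limma adjusted p = 0.0141). Pxdn, the peroxidase that forms sulfilimine cross-links in collagen IV, had 10.29 and 10.45 in KO and 11.32 and 11.12 in WT and fell by 0.85 (limma adjusted p = 0.0229). The laminin chains Lamb1, Lamb3 and Lama3 fell by 1.06, 0.80 and 0.59, and the laminin-binding integrin chain Itga3 by 0.87 (limma adjusted p from 0.00983 to 0.0307). The tetraspanin Cd151 was not called (difference -0.42). Other partners were named after their values were seen, and none of them was called. KO arrays lay above WT arrays for the plakin gene Dst (difference 0.63, limma adjusted p = 0.0602). The laminin chains Lama5 (0.51, limma adjusted p = 0.0763) and Lamc1 (0.29, limma adjusted p = 0.148) had the same order. KO arrays lay below WT arrays for the integrin chains Itgb4 (-0.77, limma adjusted p = 0.0660) and Itga6 (-0.33, limma adjusted p = 0.129). Calls of Pxdn, Lamb3 and Lama3 were lost in each fit on 3 arrays (adjusted p between 0.0557 and 0.169), and that of Itga3 in all such fits but the one without KO replicate 2 (0.0607 to 0.0735). Without KO replicate 1 those of Hspg2 and Lamb1 were lost (0.0792 and 0.0578), as was Hspg2 without KO replicate 2 (0.0508) and Lamb1 without WT replicate 1 (0.0562).

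Collagen-degrading genes changed both ways, with 1 of 9 called higher, 2 lower and 6 not called (4.11% higher and 3.11% lower over all rows). KO arrays lay above WT arrays in 7 of the 9, against 23.8% of all rows, with a median difference of 0.73. Of these 7, Mmp8 was at or below background in both groups and Ctsk in WT. Mmp13, a collagenase of fibrillar chains, had 10.77 and 11.43 in KO and 9.53 and 8.96 in WT and rose by 1.86 (limma adjusted p = 0.0274, and 0.0659, 0.0717 and 0.0744 without KO replicate 1, KO replicate 2 and WT replicate 2). Mmp14, a membrane-bound collagenase, had 12.50 and 12.85 in KO and 14.62 and 14.44 in WT and fell by 1.85 (limma adjusted p = 0.00756). The gelatinase Mmp9 fell by 4.60 (limma adjusted p = 0.00754). Named after their values were seen, Mmp2 (difference 1.37, limma adjusted p = 0.0789) and the collagen uptake receptor Mrc2 (0.84, limma adjusted p = 0.0622) were not called.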

How the data were processed

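The deposited values are log2 signals per array row. The submitters' processing notes name RMA and Affymetrix Expression Console, and the labels call the values SST-RMA gene signals. RMA equalises the arrays, so a shift shared by most genes is removed, and SST-RMA transforms the signal, so folds may differ from plain RMA. No version or genome build is named there. A platform table names 1 symbol for 30604 of 72688 rows, and 827 symbols were updated through Entrez identifiers (RefSeq, GRCm38.p6).

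Rows with 1 symbol were compared with limma 3.58.1 (lmFit, eBayes, two-sided, no replicate block) in R 4.3.3, and the procedure was tested on simulated data. The members and lists were chosen with earlier results of these data known. Values per array are given for Slc2a1 and for chains with a group above background. List genes named are those called (up to 8 by p, 4 for cell markers) and the brightest (2, or 3 for markers). Markers and other list genes at or below background are named as such, after their values were seen. Among the list genes, Plod3, Loxl2, Itga1 and Pdgfra share a row with another gene, and Fkbp10, Adamts2 and Fbn1 were not analysed here. With 2 arrays per group, their number limits the precision, and no exact permutation test could pass 0.05. Alternatives changed the rows tested, the normalization, the moderation, the block and the arrays.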

Additional observations from a re-analysis of the deposited data

How the results depend on the processing

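No direction reversed among the 45 genes followed. Testing all rows, with control rows, left 74 calls among 72688 rows, and 0 calls in every list (Col8a1 had adjusted p = 0.0591); more rows enter the adjustment and the fit there. With only rows at or above the median mean, which drops most chains at background, the median difference was 0.18 over the 12 collagens left, 0.30 over 2 fibrillar chains, 0.32 over 4 other chains, -0.67 over 14 junction partners and -0.28 over 3 smooth muscle markers. Of the endothelial and immune markers 1 each was left, Kdr (3.60) and Cd68 (1.95). Calls there were 2 higher junction partners, 3 higher breakdown genes, 5 higher fibroblast and 3 melanocyte markers. Quantile normalization gave 3 lower assembly genes, 2 receptors and 3 keratinocyte markers (median -0.28), and subtracting each array's median gave 1 higher collagen (Col6a1 lost, adjusted p = 0.0546) and 1 higher fibroblast marker. The causes were not tested.

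The replicate numbers are not stated to pair arrays, and deviations of same-numbered arrays correlated at -0.23 across rows. A fit with the replicate block called 1849 rows, against 2209 without it. It called 0 higher collagens (Col12a1 0.0572, Col6a1 0.0639), 1 other chain, 3 lower assembly genes, 3 higher breakdown genes, 4 higher fibroblast and 3 melanocyte markers.

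Leaving out 1 array gave 314 and 1214 calls over all rows without KO replicate 1 and 2, and 389 and 566 without WT replicate 1 and 2. Over these fits 0 collagens were called higher and 1 lower, with medians from -0.00605 to 0.0469. Medians ran from 0.04 to 0.10 for basement membrane (0 calls), 0.00650 to 0.0282 for fibrillar (0 calls) and -0.0215 to 0.0484 for other chains (1 call). Assembly had 2 calls higher and 1 to 3 lower (median 0.01 to 0.07), receptors 1 call (-0.09 to -0.01), junction partners 0 higher and 0 to 2 lower (-0.40 to -0.28), and breakdown 0 to 1 higher and 2 lower (0.38 to 1.10). Marker calls were 0 for keratinocyte (-0.20 to -0.13), 0 to 3 higher and 0 to 1 lower for fibroblast (0.37 to 0.79), 0 to 4 for melanocyte (0.60 to 1.26), 1 for endothelial (-0.05 to 0.07), 0 to 1 for immune (-0.05 to 0.00) and 0 for smooth muscle (-0.20 to -0.0911). In these fits the lone array is assumed to vary like the other group. Chains near background cannot be measured further on these arrays.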

Other observations

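The array rows of the members left out for naming several genes cannot be assigned to 1 gene. The row that names both Col7a1 and Mir711 had 6.61 and 6.60 on the KO arrays and 7.15 and 7.00 on the WT arrays, all above background, with both KO values below both WT values. The row that names both Col6a4 and Dvwa had 4.28 and 4.03 on the KO arrays and 4.11 and 4.17 on the WT arrays, all at or below background. Among the marker lists, the row that names Pdgfra, a receptor gene of fibroblasts, together with the microRNA gene Mir7025 had 6.82 and 7.86 on the KO arrays and 5.44 and 5.50 on the WT arrays. These rows were not tested.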
